A study of Mus musculus with 743 samples.

Results

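Periaxin (Prx), the Ahnak proteins (Ahnak, Ahnak2) and the genes of the dystroglycan complex (Drp2, Dag1, Utrn, Dmd, Sgce) were followed across single SCs of the mouse sciatic nerve at postnatal day 1. The 8 genes were taken as a fixed list of symbols, and all 8 were found among the 25700 genes of the count table. Each well of 2 plates held 1 sorted cell, and the 621 wells with at least 1500 detected genes of 743 were kept, 287 on plate 1 and 334 on plate 2. All cells came from P1 mice on the C57bl/6J background, with no control genotype. They carried a Cre transgene active in SCs, together with the recombination reporter ReYFP Tg/+ and βAct-DsRed Tg/+, and cells were sorted on eYFP. Each plate held a pool of a male and a female pup, which makes the plate the unit of replication (n = 2), since cells of 1 plate are not independent samples. The labels name the plates as technical runs, while the design text describes them as independent biological samples.

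Cells were placed in 3 classes by the reads of marker genes, in CPM, that is reads per 1000000 reads counted in the same cell or sum. Cycling cells had at least 50 CPM of Mki67 and Top2a together, promyelinating cells were not cycling and had at least 50 CPM of the myelin gene Ncmap, and the remaining cells are called other cells. There were 119 promyelinating cells (59 on plate 1 and 60 on plate 2), 110 cycling cells (53 and 57) and 392 other cells (175 and 217). Of myelin genes not used in the rule, Mbp (log2 difference 1.98, SE 0.19, adjusted p 0.00165 by edgeR) and Mag (3.19, SE 0.50, adjusted p 0.0172 by edgeR) were higher in promyelinating than in other cells, while Egr2 (1.28, SE 0.29, adjusted p 0.0805 by edgeR) was not called. By the same test, 6 of 7 proliferation markers were higher in cycling than in other cells. Few cells lay near the limits, with 9 non-cycling cells between 25 and 100 CPM of Ncmap and 9 cells in the same range of Mki67 and Top2a. The 6 plate and class sums held 45073128 to 172878954 reads, and cells had a median of 701288 to 950150 reads in each of them. Promyelinating cells had more detected genes (median 3690 and 3550) than other cells (2775 and 2819) at similar read numbers. Cycling cells also had more of them (3425 and 3477) than other cells. Over all cells, the SC markers Sox10, S100b and Erbb3 summed to 663 and 559 CPM on plates 1 and 2. Of the lists for other cells, mural markers summed to 41.7 and 45.1 CPM (Acta2 and Rgs5 at 0), fibroblast markers to 27.9 and 10.7 CPM (Pdgfra at 0) and immune markers to 14.01 and 14.84 CPM (Ptprc and Tyrobp at 0). Endothelial markers summed to 1.82 and 0.881 CPM (Cdh5 and Kdr at 0) and skeletal muscle markers to 0.227 and 2.47 CPM (Myh3 and Des at 0). The mural marker Pdgfrb moved with the classes, with 43.7 and 13.8 CPM in promyelinating, 20.7 and 37.8 CPM in other and 0 CPM in cycling cells of both plates, where it was called lower (adjusted p 0.00338 against promyelinating and 0.00976 against other cells by edgeR). Its part in the differences from cycling cells was not tested.

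Periaxin is a scaffold protein of myelinating SCs, which joins dystrophin-related protein 2 (Drp2) to dystroglycan and holds the outer surface of the myelin sheath against the plasma membrane in patches. Dystroglycan, encoded by Dag1, is a receptor for laminin in the basal lamina, and is linked inside the cell to utrophin, dystrophin or Drp2 and within the membrane to sarcoglycans such as epsilon-sarcoglycan (Sgce). Ahnak is a large scaffold protein related to periaxin, and binds the annexin A2 and S100A10 complex below the membrane.

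Sequences before a RefSeq transcription start are shown for Prx, Dag1 and Utrn, the members that were higher in promyelinating than in cycling cells. They are the 250 bases before that start (GRCm38.p6), written in the direction of the gene, and 6 of the 8 members matched an entry of that table. Prx lies at chr7:27499074-27499323 on the + strand, Dag1 at chr9:108263959-108264208 on the - strand, the first of 2 starts, and Utrn at chr10:12861736-12861985 on the - strand. The starts of Prx and Dag1 are the first base of the annotated gene, while that of Utrn is internal, 7630 bases inside it. The Utrn sequence therefore lies within the annotated gene, and is not taken as its promoter. Capitals mark matches, on either strand, to GCGNGGGCG (Egr factors), ACAANG (Sox factors), ATGCNAAT (octamer, POU factors) or GGAATG (Tead factors), each of which is the binding word of a factor family with members at work in SCs.
Prx: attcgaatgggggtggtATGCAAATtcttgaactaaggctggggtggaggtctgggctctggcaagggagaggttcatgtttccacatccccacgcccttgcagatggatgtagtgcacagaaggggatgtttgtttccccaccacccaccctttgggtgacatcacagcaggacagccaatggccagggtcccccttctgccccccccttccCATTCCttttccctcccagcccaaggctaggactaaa
Dag1: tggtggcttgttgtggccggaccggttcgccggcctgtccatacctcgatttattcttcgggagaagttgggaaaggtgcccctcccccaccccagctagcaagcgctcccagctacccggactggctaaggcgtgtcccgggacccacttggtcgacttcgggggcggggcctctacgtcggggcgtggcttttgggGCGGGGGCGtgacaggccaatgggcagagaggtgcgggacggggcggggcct
Utrn: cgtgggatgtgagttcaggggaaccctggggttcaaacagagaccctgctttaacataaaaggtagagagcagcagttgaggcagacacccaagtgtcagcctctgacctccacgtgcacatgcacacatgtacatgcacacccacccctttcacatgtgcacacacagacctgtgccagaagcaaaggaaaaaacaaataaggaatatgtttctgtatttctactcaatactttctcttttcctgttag
The Prx sequence held an octamer word 233 bases and a Tead word 37 bases before the start, Dag1 held an Egr word 52 bases before it, and Utrn held none of the 4 words. Among all 32851 sequences of this length before a start in the same RefSeq table, 4.70% held the Egr word, 36.3% the Sox word, 2.86% the octamer and 12.6% the Tead word. These matches describe letters only.

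The first question was how the members differ between cells that have begun to express myelin genes and the remaining non-cycling cells. Prx was higher in promyelinating cells, by 2.09 on the log2 scale (4.27-fold). The dystroglycan-side genes Dag1, Utrn and Dmd had positive differences and Ahnak, Ahnak2 and Sgce negative ones, and none of these 6 passed the test. By the quasi-likelihood test of edgeR, adjusted over 13292 genes by the Benjamini-Hochberg method, 1 of 8 members (12.5%) was called, against 1.79% of all genes tested. Of all genes, 0.497% were called higher and 1.29% lower in promyelinating cells. All 8 members passed the filter on low counts, Drp2 only through promyelinating cells. The plate sums of promyelinating and other cells did not overlap for any of the 8 members, 5 higher and 3 lower, as was the case for 44.4% of all genes (16.4% higher and 28.1% lower). At an unadjusted p under 0.05 the same test counted 8 of 8 members and 11.2% of all genes. The median log2 difference was 0.82 for the members and -0.07 for all genes. The filter fixed the direction of Drp2, and of the 7 members without it 4 were higher and 3 lower without overlap, 7 had an unadjusted p under 0.05 and the median was 0.74. Medians of this list and of the pathway lists below were the same to 2 decimals with genes at 0 in a class set at their bound, except where given. With the plate as a replicate block, which the shared animals of a plate allow, 3 of 8 members were called, against 2.22% of all genes. The sum of 8 dissociation response genes moved with the classes. It was 2205 and 2418 CPM in promyelinating cells on plates 1 and 2, against 5842 and 6380 CPM in other cells. By edgeR's quasi-likelihood test without the block, 4 of the 8 genes were lower. Not all 8 went this way, since Hspa1b had a log2 difference of 0.57 and was not called. The part of this response, and of the higher number of detected genes, in the members' differences was not tested.

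**Figure D1:**
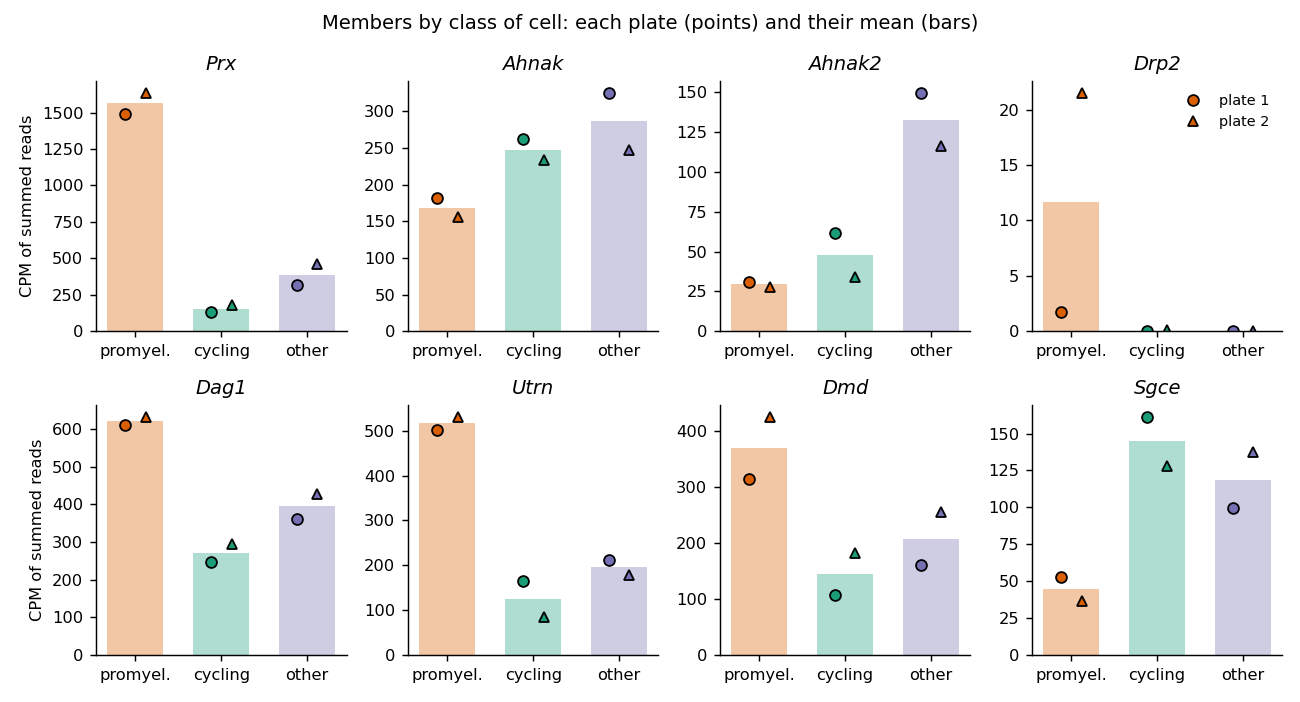
Each panel plots CPM of the summed reads of 1 member (y axis, linear from 0) by class, with 1 point for each plate and a bar at the mean of both. Prx stood at 1490 and 1635 CPM in promyelinating cells and at 318 and 458 CPM in other cells.

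Prx (ENSMUSG00000053198, chr7:27499324-27520214, + strand) had 1490 CPM on plate 1 and 1635 CPM on plate 2 in promyelinating cells. It had 318 and 458 CPM in other cells and 131 and 178 CPM in cycling cells. Every plate sum of promyelinating cells was therefore above every sum of the other classes. The means were 1562 ± 102 CPM (SD, n = 2), 388 ± 99.1 and 155 ± 33.1 CPM in the same order. Promyelinating against other cells, the log2 difference was 2.09 (SE 0.23) with an adjusted p of 0.00333 by edgeR's quasi-likelihood test, and it was 2.23 on plate 1 and 1.84 on plate 2. All 119 promyelinating cells had a Prx read, as did 302 of 392 other cells (77.1%) and 72 of 110 cycling cells (65.5%). The lowest promyelinating cell had 89.2 CPM on plate 1 and 190 CPM on plate 2. Prx was thus not limited to promyelinating cells, but only 3 other cells on plate 1 (1.71%) and 6 on plate 2 (2.76%) reached the promyelinating median of their plate, and 0 cycling cells did. The lowest promyelinating cell of their plate was reached by 61.7% and 54.8% of other cells. The highest Prx value of all cells, 5386 CPM, was in an other cell of plate 1. Of the 5579 exon bases of Prx, 300 (5.38%) overlapped Gm15541 on the opposite strand, whose reads cannot be told apart from those of Prx where counting ignored strand. The exons of the other 7 members overlapped no other annotated gene.

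**Figure D2:**
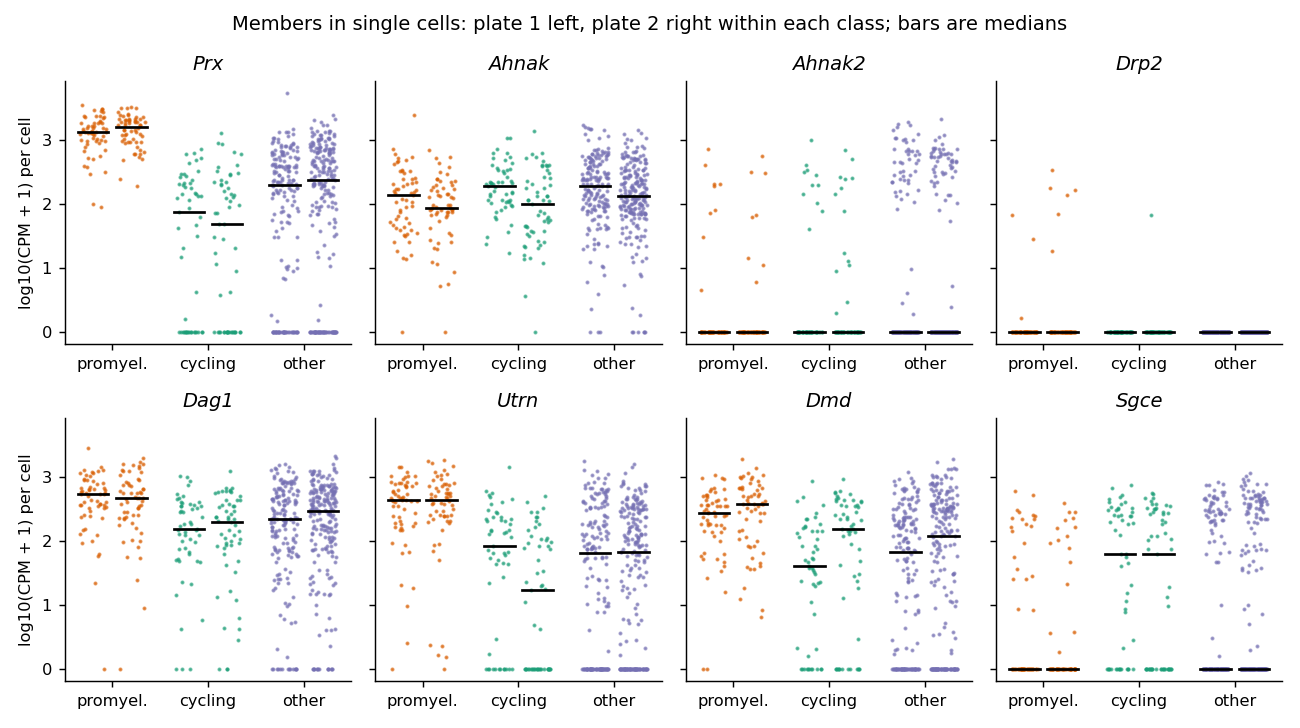
Each panel plots log10(CPM + 1) of 1 member (y axis) by class and plate, with plate 1 on the left, 1 point for each cell and a line at the median. The Prx medians of promyelinating cells were 1325 and 1609 CPM, against 198 and 234 CPM in other cells.

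Ahnak (ENSMUSG00000069833, chr19:8989284-9076914) was read in nearly every cell of every class, 98.3% of promyelinating, 99.1% of cycling and 97.8% of other cells as means of the plates. Its sums were 182 and 155 CPM in promyelinating cells, 263 and 233 CPM in cycling cells and 325 and 248 CPM in other cells. Cycling and other cells overlapped, and promyelinating cells lay below both. The difference from other cells was -0.69 on the log2 scale (SE 0.25), with an adjusted p of 0.329 by edgeR's quasi-likelihood test.

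Ahnak2 (ENSMUSG00000072812, chr12:112772194-112802657), a relative of Ahnak, was read in few cells of any class. Promyelinating cells had 31.2 and 28.0 CPM, cycling cells 61.4 and 34.3 CPM, and other cells 149.7 and 116 CPM. A read was found in 17 of 119 promyelinating, 25 of 110 cycling and 107 of 392 other cells. The promyelinating sums were lower than those of other cells on both plates, but 3 cells gave 80.1% of their reads on plate 1 and 96.2% on plate 2. The log2 difference was -2.09 (SE 0.44), with an adjusted p of 0.0613 by edgeR's quasi-likelihood test and 0.0438 with the plate as a replicate block.

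Drp2 (ENSMUSG00000000223, chrX:134404551-134456573), the partner that periaxin binds, was the rarest member. It was read in 9 of 119 promyelinating cells (7.56%), 1 of 110 cycling cells and 0 of 392 other cells, which allows a share of up to 0.765%. The promyelinating sums were 1.75 CPM on plate 1 and 21.5 CPM on plate 2, so the plates differed widely. Of the 1211 promyelinating reads, 599 came from 1 cell of plate 2. Pooled over plates, promyelinating cells had 11.6 CPM, 1289-fold the floor of 3 reads over the other cells (0.00902 CPM). This ratio rests on plate 2, since with 3 reads per plate it was 93.0-fold on plate 1 and 1240-fold on plate 2. It is not a lower limit over cells, since 1 missed positive cell could hold far more than 3 reads. Drp2 was not called, with an adjusted p of 0.153 by edgeR's quasi-likelihood test. In the 9 promyelinating cells with a Drp2 read, Prx ran from 1132 to 3285 CPM. The Prx medians of all promyelinating cells were 1325 and 1609 CPM on plates 1 and 2. The 1 cycling cell with a Drp2 read had 16.4 CPM of Prx. Intervals and floors cover counting error only, since reads without molecular identifiers are not independent molecules.

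Dag1 (ENSMUSG00000039952, chr9:108204634-108263958), which encodes both dystroglycan subunits, was read in 98.3% of promyelinating, 94.5% of cycling and 92.8% of other cells. Promyelinating cells had 610 and 632 CPM, other cells 361 and 428 CPM and cycling cells 247 and 294 CPM. The 3 classes followed each other without overlap. The difference of promyelinating from other cells was 0.74 on the log2 scale (SE 0.19), and the adjusted p of edgeR's quasi-likelihood test was 0.135.

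Utrn (ENSMUSG00000019820, chr10:12382188-12869365), encoding the dystrophin relative utrophin, had 502 and 531 CPM in promyelinating cells. Other cells had 213 and 178 CPM, and cycling cells 165 and 83.6 CPM. Promyelinating cells stood above both other classes, and 98.3% of them had a read against 68.4% of other cells. With each cell thinned to 50000 reads, which 616 of the 621 cells held, the shares were 93.2% and 91.4% of promyelinating cells against 60.6% and 62.8% of other cells. The log2 difference from other cells was 1.48 (SE 0.34), with an adjusted p of 0.0872 by edgeR's quasi-likelihood test and 0.0393 with the plate as a replicate block.

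Dmd (ENSMUSG00000045103, chrX:82948870-85206141), encoding dystrophin, had 313 and 425 CPM in promyelinating cells. Other cells had 160 and 255 CPM, and cycling cells 107 and 182 CPM. Plate 2 was higher than plate 1 in all 3 classes, and the sums of cycling and other cells overlapped. The log2 difference of promyelinating from other cells was 0.91 (SE 0.33), with an adjusted p of 0.323 by edgeR's quasi-likelihood test. Dmd has many promoters, and the counts do not separate its short from its long transcripts.

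Sgce (ENSMUSG00000004631, chr6:4674350-4747207) encodes epsilon-sarcoglycan, and was read most often in cycling cells. It had 52.7 and 36.5 CPM in promyelinating cells, 162 and 128 CPM in cycling cells and 99.3 and 137 CPM in other cells. A read was found in 35.6% and 26.7% of promyelinating cells, 71.7% and 56.1% of cycling cells and 34.9% and 38.7% of other cells on plates 1 and 2. The sums of cycling and other cells overlapped, while the shares of positive cells did not. At 50000 reads per cell these shares were 28.8% and 22.4%, 57.7% and 54.4%, and 32.6% and 35.8%. The log2 difference of promyelinating from other cells was -1.32 (SE 0.35), with an adjusted p of 0.145 by edgeR's quasi-likelihood test.

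**Figure D3:**
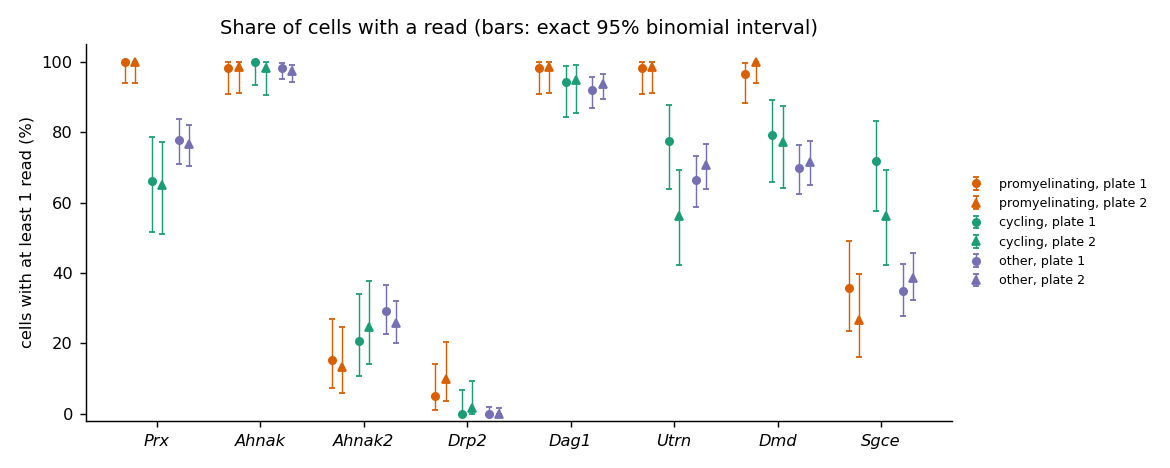
The y axis gives the percentage of cells with at least 1 read of each member (x axis), with 1 point for each class and plate and bars for the exact 95% binomial interval, which covers counting error over cells only. All promyelinating cells had a Prx read, while Drp2 was read in 3 cells of plate 1 and 6 cells of plate 2 of that class.

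The second comparison set cycling against other cells. No member was called by edgeR's quasi-likelihood test (0 of 8, against 1.01% of all genes tested, 0.895% higher and 0.113% lower in cycling cells), while 2 members had an unadjusted p under 0.05, against 10.1% of all genes, and DESeq2 called 1, against 6.04%. Prx had the smallest adjusted p of the members, with a log2 difference of -1.20 (SE 0.23) and an adjusted p of 0.0577 by the same edgeR test. It was lower in cycling cells on both plates, by a log2 ratio of -1.27 and -1.36 in CPM without the scaling factors of the test. The adjusted p of edgeR was 0.00981 with the plate as a replicate block, which called 1.17% of all genes. Leaving out the 1 cell that met both marker rules also gave a call, with an adjusted p of 0.0307 by edgeR. Plate sums did not overlap for 4 members, all lower in cycling cells (Prx, Ahnak2, Dag1 and Utrn), against 43.6% of all genes (14.9% higher and 28.7% lower). The remaining log2 differences of tested members other than Drp2 ran from -1.34 for Ahnak2 to 0.43 for Sgce. The dissociation response genes summed to 4726 and 7160 CPM in cycling cells, and none of the 8 was called between cycling and other cells. The part of the higher number of detected genes in cycling cells was not tested.

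The third comparison set promyelinating against cycling cells. Prx, Dag1 and Utrn were higher and Sgce lower in promyelinating cells, so that 4 of 8 members were called, against 5.95% of all genes tested (2.12% higher and 3.83% lower). Prx differed by 3.29 on the log2 scale (SE 0.24, 9.77-fold), with an adjusted p of 0.000191 by edgeR's quasi-likelihood test. Dag1 differed by 1.15 (SE 0.19, 2.22-fold) with an adjusted p of 0.0108, and Utrn by 1.99 (SE 0.35, 3.97-fold) with an adjusted p of 0.0127, by the same edgeR test. For Utrn the log2 ratio was 1.60 on plate 1 and 2.67 on plate 2, where cycling cells had 83.6 CPM of it. Sgce fell by 1.76 on the log2 scale (SE 0.36) with an adjusted p of 0.0254 by edgeR, and its ratio was -1.62 and -1.81 on the plates. Dmd had a log2 difference of 1.31 (SE 0.33) with an adjusted p of 0.0600 by edgeR, and 0.00744 with the plate as a replicate block, which called 6.66% of all genes. Ahnak (-0.61) and Ahnak2 (-0.75) were not called. None of the members' plate sums overlapped between these classes, 5 being higher and 3 lower in promyelinating cells, against 47.8% of all genes (24.6% higher and 23.1% lower). Without Drp2, 4 were higher and 3 lower, and the median log2 difference was 1.15. The members' median log2 difference was 1.23 here and -0.40 in the second comparison, against -0.02 and -0.07 for all genes. The 3 comparisons share their sums pairwise, so their results are not independent of each other. 5 of the 8 dissociation response genes were lower in promyelinating than in cycling cells by the same test, and their part was not tested.

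**Figure D4:**
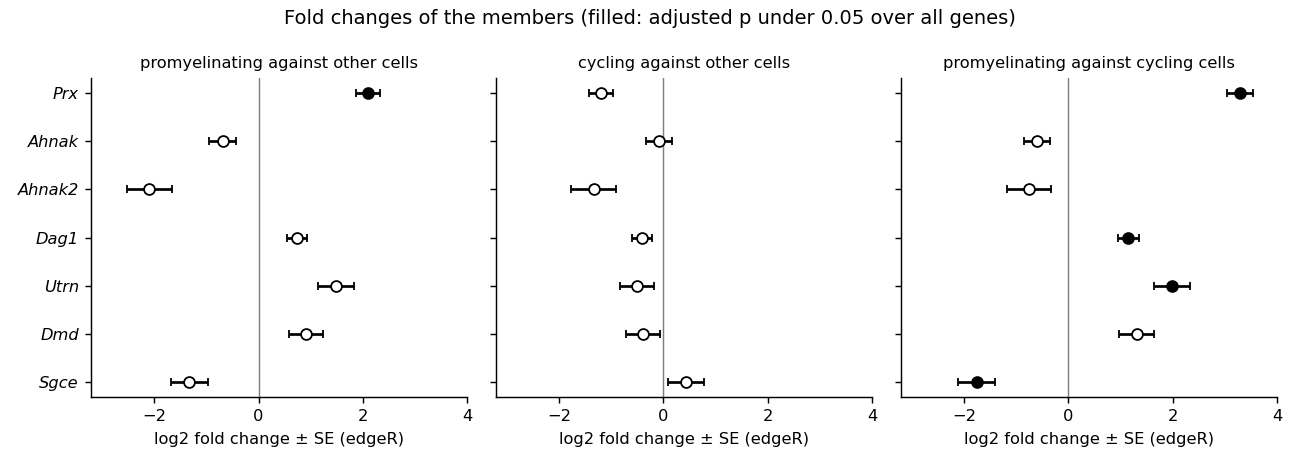
Points give edgeR's log2 fold change of 7 members (x axis, bars ± SE) in each comparison, filled where the adjusted p over all genes is under 0.05. Filled points are Prx in the first panel and Prx, Dag1, Utrn and Sgce in the third, and Drp2 is left out because a class was at 0.

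Levels of different genes were compared as CPM per kilobase of annotated exon. In promyelinating cells Prx had 280 ± 18.3 CPM per kb (SD, n = 2), followed by Dag1 at 97.7 ± 2.46, Utrn at 30.2 ± 1.21 and Dmd at 15.5 ± 3.33. Ahnak at 8.46 ± 0.956, Sgce at 4.20 ± 1.08, Ahnak2 at 2.09 ± 0.158 and Drp2 at 1.36 ± 1.63 CPM per kb came after them. In this class the mean ± SD ranges of Ahnak2 and Drp2 overlapped, and those of all other neighbours in the order did not. In cycling cells Dag1 led with 42.6 ± 5.19 CPM per kb, above Prx at 27.7 ± 5.94. Sgce (13.7 ± 2.21 CPM per kb) and Ahnak (12.4 ± 1.04) came next there with overlapping ranges, before Utrn (7.28 ± 3.38), Dmd (6.08 ± 2.25) and Ahnak2 (3.38 ± 1.35), whose ranges overlapped from 1 neighbour to the next. In other cells Prx (69.5 ± 17.8 CPM per kb) and Dag1 (62.1 ± 7.47) did not differ beyond their spread. Ahnak (14.4 ± 2.74 CPM per kb), Utrn (11.4 ± 1.45), Sgce (11.1 ± 2.52), Ahnak2 (9.38 ± 1.68) and Dmd (8.72 ± 2.81) followed in that class, and the ranges of neighbours overlapped all the way. The order of the laminin receptor and its cytoplasmic linkers, Dag1 above Utrn above Dmd, was the same in the means of all 3 classes, although Utrn and Dmd overlapped in cycling and other cells. Exon lengths count every annotated exon, so a gene read mostly from short transcripts has its level per kb set too low.

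The members also varied within classes, described here without a test. Among promyelinating cells, those with Mbp above the median of their plate had 1710 CPM of Prx against 1341 CPM in those below it on plate 1, and 2046 against 1398 CPM on plate 2. The cells with more Mbp also had more detected genes (median 4161 against 3342.5, and 3855.5 against 3073.5) and fewer reads (median 767181 against 985614 on plate 1), whose part was not tested. Ahnak2 had 14.4 against 42.6 CPM and 15.5 against 35.3 CPM in the same split, but the share of cells with a read went the other way (17.2% against 13.3%, and 16.7% against 10%), so no direction is given for it. Dag1 had opposite directions on the plates in this split (712 against 541 CPM, and 562 against 673 CPM). Among other cells, those with at least 50 CPM of Cdkn1c, an inhibitor of the cell cycle, had 354 against 286 CPM of Prx on plate 1 and 576 against 311 CPM on plate 2. Ahnak was lower in the same cells, with 233 against 405 CPM and 177 against 336 CPM. Both differences had 1 direction on both plates. The sums of Ahnak2 differed on plate 2 only (72.8 against 169.9 CPM, and 149 against 150.0 CPM on plate 1). Its share of cells with a read was lower in the cells with more Cdkn1c on both plates (24.7% against 33.0%, and 20.7% against 32.3%). Other cells with at least 50 CPM of the immature SC genes Ngfr and L1cam together had more Ahnak2, with 207 against 125 CPM and 223 against 55.8 CPM. In a split by Egr2, the transcription factor that drives myelin genes, chosen after the values were seen, other cells with at least 50 CPM had 435 against 246 CPM of Prx on plate 1 and 695 against 334 CPM on plate 2. Utrn was 297 against 161 CPM and 198 against 167 CPM in the same split. The higher side of each split of other cells also had more detected genes on both plates. Medians were 2951 against 2692.5 and 2897 against 2671 for Cdkn1c, and 3027 against 2623.5 and 2920 against 2666 for Egr2. In the Egr2 split of plate 2 the median reads were 592293 against 903968. The part of detected genes and reads in these differences was not tested.

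Across single cells the members were at most loosely related. Over 21 pairs of the 7 members other than Drp2, Spearman's rho in all cells ran from -0.18 to 0.40, with 287 cells on plate 1 and 334 on plate 2, and 1 pair exceeded 0.3 on both plates. That pair was Prx and Utrn (0.32 and 0.40), followed by Utrn with Dmd (0.24 and 0.28) and Prx with Dmd (0.40 and 0.23). Within each class alone, 0 of the 21 pairs exceeded 0.3 on both plates. Cells of a plate share library preparation and differ in depth, and both Prx (0.40 and 0.28) and Utrn (0.36 and 0.28) were related to the number of detected genes, so these values are a description.

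**Figure D5:**
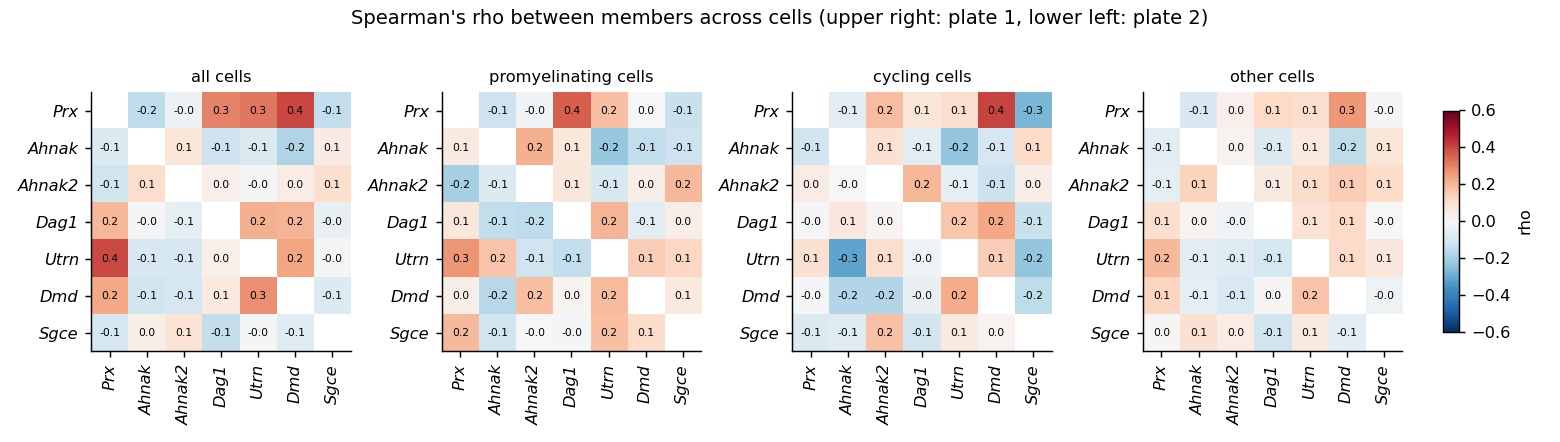
Cells of each matrix give Spearman's rho between 2 members across cells (colour scale -0.6 to 0.6), with plate 1 in the upper right and plate 2 in the lower left, for all cells and for each class. In all cells Prx with Utrn stood at 0.32 and 0.40, and rho over all pairs and classes lay between -0.32 and 0.41.

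The genes most like each member across all cells, by the lower rho of the 2 plates among 7893 genes read in at least 10% of cells, were as follows. For Prx they were Ncmap (0.60 and 0.58), which is also the marker of the class rule, Mpp6 (0.56 and 0.59) and Csrp2 (0.62 and 0.56). For Utrn they were Ncmap (0.39 and 0.45), Emid1 (0.38 and 0.44) and Slc36a2 (0.37 and 0.38). Ncmap thus headed the list of both. For Dmd they were Gsdme (0.35 and 0.32), Emid1 (0.36 and 0.29) and Fa2h (0.31 and 0.29), and for Dag1 they were Pou3f1 (0.26 and 0.27), Mpp6 (0.37 and 0.26) and Egfl8 (0.27 and 0.25). For Ahnak they were Col3a1 (0.26 and 0.29), Matn2 (0.26 and 0.25) and Lgals1 (0.26 and 0.23). Ahnak2 (Klf6, Anxa5 and Afap1) and Sgce (Dhrs3, Tuba1a and Prss23) had no gene above 0.25 on both plates. Values this low in sparse counts are not findings.

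Other genes of the pathway were read from 4 lists. An unadjusted p under 0.05 by edgeR was reached by 11.2% and 10.1% of all genes in the first and second comparison. DESeq2 called 6.04% of all genes in the second. The numbers of all genes that DESeq2 called in each comparison are given below, and exceeded those of edgeR in each. The share of all genes at an unadjusted p under 0.05 in the third comparison is not given. The lists' counts at these rules are not read as results. Of 13 sarcoglycans, syntrophins, dystrobrevins and other dystrophin-associated genes, 9 were tested, and 0 were called against other cells in either class by edgeR's quasi-likelihood test, with 2 at an unadjusted p under 0.05 and 1 called by DESeq2 in each of these comparisons (Sgcd in promyelinating and Dtna in cycling cells, both lower). Promyelinating against cycling cells, Dtna was higher and Sgcd lower, 2 of 9 (22.2%) against 5.95% of all genes. Dtna, encoding the dystrophin-binding protein alpha-dystrobrevin, had 14.9 and 12.8 CPM in promyelinating cells and 10.5 and 10.9 CPM in other cells. In cycling cells it had 2 reads in all, and the ratio of pooled CPM was 641 with a 95% binomial counting interval of 177 to 5296 (edgeR adjusted p of 0.0220). This interval treats reads as independent, which they are not, and leaves out the spread over cells and plates, so it is too narrow. Sgcd, encoding delta-sarcoglycan, had 51.0 and 27.0 CPM in cycling cells, 12.3 and 26.4 CPM in other cells, and 0 and 0.326 CPM in promyelinating cells (edgeR adjusted p of 0.0250). Both genes rest on few cells, Dtna on 20 of 119 promyelinating cells and Sgcd on 23 of 110 cycling cells. Sgcb, encoding beta-sarcoglycan, had the most reads of the list, at 160 and 114 CPM in promyelinating, 72.8 and 76.8 CPM in cycling and 115 and 92.2 CPM in other cells, and was not called. Sspn, encoding sarcospan, had 4.83 ± 3.99, 6.16 ± 2.10 and 25.7 ± 8.80 CPM in the same order (SD, n = 2), and was not called. The list's median log2 differences were -1.60, -0.42 and -0.41 in the order of the comparisons above, against -0.07, -0.07 and -0.02 for all genes.

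Of 18 enzymes that build the laminin-binding sugar of dystroglycan, 17 were tested. Pomgnt1, which extends the O-mannose core, was the 1 gene called, and was higher in promyelinating than in cycling cells. This was 1 of 17 (5.88%) against 5.95% of all genes, so the list as a whole did not stand apart from the background. It had 140 and 154 CPM in promyelinating cells, 27.5 and 9.05 CPM in cycling cells and 32.9 and 38.8 CPM in other cells. Promyelinating sums were above all others, and the log2 difference from cycling cells was 2.94 (SE 0.57) with an adjusted p of 0.0217 by edgeR's quasi-likelihood test. The difference was 2.35 on plate 1 and 4.09 on plate 2. Against other cells it was 2.12 (SE 0.55), with an adjusted p of 0.135 by the same edgeR test. A stretch of 641 of its exon bases (11.7%) overlapped Lurap1 on the opposite strand. In both comparisons with other cells 0 of 17 were called, with 1 and 3 at an unadjusted p under 0.05, and 1 called by DESeq2 in each (Pomgnt1 higher in promyelinating and Ispd lower in cycling cells). Rxylt1 (162 ± 39.9 CPM in promyelinating, 76.4 ± 8.92 in cycling and 151 ± 37.9 in other cells), Dpm2 (116 ± 67.2, 152 ± 22.6 and 132 ± 23.4 CPM) and Dpm1 (112 ± 12.9, 85.5 ± 6.36 and 108 ± 18.5 CPM) had the highest CPM of the list over all cells, not corrected for length, and were not called. The list's median log2 differences were 0.00251, -0.32 and 0.36.

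Of 9 laminin and other basal lamina ligands of dystroglycan, 0 were called by edgeR in any comparison, with 3, 0 and 3 at an unadjusted p under 0.05 and 1, 0 and 3 called by DESeq2 (Lama1 higher in promyelinating cells in both, Lama4 and Lamc1 lower than in cycling cells). The list's median log2 differences were -0.46, 0 and -0.29, the second of which was -0.03 without Lama1, which had no read in cycling and other cells. The laminin chains Lamb1, Lama2 and Lama4 had the highest CPM over all cells, not corrected for length. Lama4 had 329 ± 71.3 CPM in promyelinating cells, 562 ± 145 in cycling and 608 ± 112 in other cells. With the plate as a replicate block it was called lower in promyelinating cells, with an adjusted p of 0.0340 against other and 0.0165 against cycling cells by edgeR. Lamb1 had 1317 ± 106, 1272 ± 399 and 1475 ± 334 CPM, and Lama2 had 599 ± 43.8, 705 ± 22.5 and 867 ± 197 CPM in the same order (SD, n = 2). Of 10 partners of periaxin and Ahnak and linkers to the cell cortex, 0 were called by edgeR, with 3, 0 and 4 at an unadjusted p under 0.05 and 1, 0 and 2 called by DESeq2 (Ezr higher in promyelinating cells in both, Anxa2 lower than in cycling cells). The list's median log2 differences were -0.12, 0.08 and -0.29. Ezr, encoding the membrane to actin linker ezrin, had 590 and 525 CPM in promyelinating cells, against 322 and 224 CPM in cycling and 326 and 243 CPM in other cells. Anxa2, the annexin that Ahnak binds, had 2046 ± 101, 2725 ± 85.7 and 2808 ± 364 CPM in promyelinating, cycling and other cells. Itga6, a laminin receptor subunit, had 634 ± 176, 560 ± 208 and 660 ± 142 CPM. The adjusted p values of edgeR for Ezr were 0.127 against other cells and 0.0798 against cycling cells, and 0.0242 and 0.0156 with the plate as a replicate block. For Anxa2 against cycling cells the adjusted p of edgeR was 0.141, and 0.0419 with that block.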

How the data were processed

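Single SCs of P1 sciatic nerves were sequenced by the authors with the Smart-seq2 protocol. The submitters' processing notes list bcl2fastq, STAR 2.6.1c, featureCounts and build GRCm38.p5, while the methods of the study name another release and a human assembly. The gene IDs are mouse IDs. Strand use is not stated in the sources used here. The authors deposited whole-number read counts for each gene in each well, not normalised and without molecular identifiers.

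The table was used as deposited, and 0 columns were without a sample. A well needed at least 1500 detected genes, and no 2 wells held identical counts. Symbols and exon lengths came from GENCODE M21 (25587 of 25700 IDs matched). Reads were summed per plate and class, scaled to CPM, and tested across all genes with edgeR 4.0.16 (filterByExpr, TMM, robust glmQLFit, glmQLFTest, no plate term, adjusted p threshold 0.05) in R 4.3.3, after a test on simulated data. The SE is derived from the quasi-likelihood F statistic. Plate ratios and overlaps of plate sums use CPM without the TMM factors, so a fitted difference can lie outside both plate ratios. These factors were 0.990 and 0.998 for promyelinating, 0.936 and 0.982 for cycling and 1.034 and 1.066 for other cells on plates 1 and 2. Alternatives used DESeq2 1.42.0, limma 3.58.1, a replicate block, other scalings, filters and cell rules. Sums of a plate come from the same pups, so the plate pairs them. Deviations of same-plate sums from the class means correlated at 0.13, 0.19 and 0.23 over 3705 genes of at least 50 CPM.

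The 8 genes, the classes, the pathway lists and the marker lists were chosen with earlier results of these data known. Besides the members, the text names genes of a list past the threshold, otherwise its 3 highest, and the 3 genes most like each member. No doublet caller was run, since cells were sorted 1 per well. The p-values of the main edgeR test rest on the spread between the 2 plates within classes. That spread is estimated over all 3 classes together and drawn towards that of other genes. The main test leaves out the pairing of sums by plate. A myelin gene and a genotype name are not reported here.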

Additional observations from a re-analysis of the deposited data

Results flagged for a closer look

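The 122 wells with fewer than 1500 detected genes entered no comparison, and 7 of the 8 members were read in more of them than the 2.46% that a count of 0 allows. Ahnak was read in 37.7% of these wells, Prx in 21.3%, Dag1 in 18%, Utrn in 14.8%, Dmd in 8.20%, and Ahnak2 and Sgce in 5.74% each. These shares were below those of the kept cells for each of these 7 members. What these wells held was not tested.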

How the results depend on the processing

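Members called in promyelinating against other cells numbered 3 with the plate as a replicate block, against 2.22% of all genes. They numbered 6 by DESeq2, 5 without the filter on low counts and 5 by limma on the mean over cells of log2(CPM + 1). There were 2 each with total reads only as scaling, by limma on log2(CPM + 1) and log2(CPM + 10), and with cells thinned to 100000 reads. In cycling against other cells the number was 1 with the replicate block (1.17% of all genes) and by DESeq2 (6.04%). It was also 1 with no filter, limma with 1 or 10 added, thinning, or the cell in both classes left out, and 2 by limma on the mean of logs. This last setting was chosen after seeing the data. All genes called also rose in number at several of these settings, as given in the next paragraph. The counts of members called at these settings are therefore not read as results about the members. The count in promyelinating against cycling cells stayed within 1.5 times of 4 in all settings run, and the replicate block added Dmd there. Beside those given with their results (Ahnak2, Utrn, Prx, Dmd, Lama4, Ezr and Anxa2), the replicate block changed no call of a member or list gene.

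All genes called numbered 238, 134 and 791 in the order of the comparisons. The replicate block called 295, 156 and 885, DESeq2 called 1024, 803 and 2350, no filter gave 521, 317 and 1290, limma with 1 added gave 379, 232 and 1343, and limma on the mean of logs 1201, 743 and 2510. Limma with 10 added gave 285 and 1268 in the comparisons with cycling cells, and thinning 209 in cycling against other cells. The share called higher was 27.7% in the first comparison and 82.3% by limma on the mean of logs, and in the second 88.8% and 55.0% by DESeq2. The cause was not tested.

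Of single members' tested differences, 324 kept direction and side of the threshold, 35 passed it and 0 lost it. The log2 difference of Dmd in cycling against other cells turned to 0.20 by limma on the mean of logs, and that of Sgce was -0.10 without plate 1 and 0.70 without plate 2. Prx in promyelinating cells was called in every setting with a test, with log2 differences of 1.87 to 4.10 from other cells and 3.14 to 5.78 from cycling cells. Leaving out 1 plate leaves no residual spread, so those values have no test. With 2 plates, low members such as Drp2 and Ahnak2 rest on a few cells.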

Other observations

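Lama1 and Itgb4 were singled out after their values were seen. Lama1, the laminin alpha 1 chain, was read in 5 of 119 promyelinating cells, in 0 of 110 cycling cells and in 0 of 392 other cells, which allows a share of up to 2.73% and 0.765%. Its sums in promyelinating cells were 4.91 CPM on plate 1 and 10.97 CPM on plate 2. Itgb4, encoding the beta 4 integrin that pairs with Itga6, was read in 24 of 119 promyelinating, 49 of 110 cycling and 155 of 392 other cells. It had 7.33 and 17.7 CPM in promyelinating cells, 18.6 and 49.9 CPM in cycling cells and 47.3 and 52.4 CPM in other cells, and was not called by edgeR in any comparison. The promyelinating sums lay below those of the other 2 classes, whose sums overlapped.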
